A study of Mus musculus with 15 samples.

Results

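The core circadian clock is described here through its 10 genes Arntl, Clock, Npas2, Per1, Per2, Per3, Cry1, Cry2, Nr1d1 and Nr1d2 in mouse hearts with chronic kidney disease (CKD) and cardiac overexpression of renalase (RNLS). The genes were taken by name from the table of read counts, where all 10 were found among 17447 genes. All 10 were among the 13021 genes that passed the filter on low counts. They were chosen by their place in the loop and with their measured read count differences between RNLS and vector hearts already known. Their levels and fold changes are therefore a description, and calls among them are counted below only beside the share of all genes.

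Heart RNA of 15 male C57BL/6J mice was sequenced 18 weeks after surgery, 3 mice in each of 5 groups. WTSHAM mice were wild type and had a sham operation without removal of kidney tissue. WTCKD and WTCKD + RNLS mice were wild type, KOCKD and KOCKD + RNLS mice carried a knockout of Rnls made with a TALEN pair against exon 4, and all 4 groups had CKD from subtotal nephrectomy. In week 2 the WTCKD and KOCKD mice received an empty vector and the other CKD mice received AAV9-cTnT-Rnls, in which the cardiac troponin T promoter limits RNLS expression to cardiomyocytes. Sham-operated mice received no virus by the labels, and a knockout sham group was not analysed here. The hour of the day at which each heart was taken is not given in the sources used here.

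The clock is a feedback loop that runs in nearly every cell. BMAL1, the protein of Arntl, pairs with CLOCK or NPAS2, binds DNA elements called E-boxes and switches on the Per, Cry and Nr1d genes. PER and CRY proteins return to the nucleus and inhibit the pair, and the nuclear receptors REV-ERBα (Nr1d1) and REV-ERBβ (Nr1d2) repress Arntl and its partners through RORE elements. In the heart the transcripts of these genes rise and fall over each day, with Arntl and Per2 high at opposite times, and the loop drives rhythms of metabolism, ion channels and growth through output factors such as DBP, TEF and HLF.

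The elements through which the loop acts can be read in the promoters of its genes. RefSeq windows of the GRCm38.p6 assembly, 250 bases before to 50 bases after a transcription start, were held for 9 of the 10 genes, 13 windows in all, and none was held for Per2. Searched on both strands were the E-box CACGTG, found in 7.15% of 32851 windows of all genes, the E′-box CACGTT in 4.68%, the D-box TTATGNAA in 3.38%, and the RORE, searched as AANT followed by AGGTCA or GGGTCA, in 0.435%. Shown are 4 windows that hold them, in gene sense, with matches in capitals. Arntl is at chr7:113207261-113207560 on the + strand and holds a RORE that begins 28 bases after the start. Per1 is at chr11:69098699-69098998 on the + strand, with an E-box that begins 166 bases before the start and a D-box 24 bases before it. Per3 is at chr4:151044616-151044915 on the − strand, with D-boxes 205 and 158 bases before the start. Cry1 is at chr10:85185005-85185304 on the − strand, with an E-box 60 bases and an E′-box, on the other strand, 79 bases before the start.
Arntl: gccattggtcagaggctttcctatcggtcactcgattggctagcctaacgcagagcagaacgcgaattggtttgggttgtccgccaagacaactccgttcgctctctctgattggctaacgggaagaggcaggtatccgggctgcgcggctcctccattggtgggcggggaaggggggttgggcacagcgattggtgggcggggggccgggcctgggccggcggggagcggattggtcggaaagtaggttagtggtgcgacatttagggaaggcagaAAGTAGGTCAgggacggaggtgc
Per1: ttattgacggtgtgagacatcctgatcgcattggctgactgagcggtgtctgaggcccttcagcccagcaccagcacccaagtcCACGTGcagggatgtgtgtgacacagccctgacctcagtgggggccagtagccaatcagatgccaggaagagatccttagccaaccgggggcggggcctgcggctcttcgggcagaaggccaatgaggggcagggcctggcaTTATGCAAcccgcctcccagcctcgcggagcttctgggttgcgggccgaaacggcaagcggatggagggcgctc
Per3: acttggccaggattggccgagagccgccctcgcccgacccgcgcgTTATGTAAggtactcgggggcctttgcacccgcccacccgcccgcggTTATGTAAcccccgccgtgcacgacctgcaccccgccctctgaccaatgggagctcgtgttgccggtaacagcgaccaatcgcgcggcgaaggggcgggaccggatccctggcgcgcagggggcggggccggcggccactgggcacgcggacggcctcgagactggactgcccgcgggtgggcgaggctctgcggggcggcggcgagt
Cry1: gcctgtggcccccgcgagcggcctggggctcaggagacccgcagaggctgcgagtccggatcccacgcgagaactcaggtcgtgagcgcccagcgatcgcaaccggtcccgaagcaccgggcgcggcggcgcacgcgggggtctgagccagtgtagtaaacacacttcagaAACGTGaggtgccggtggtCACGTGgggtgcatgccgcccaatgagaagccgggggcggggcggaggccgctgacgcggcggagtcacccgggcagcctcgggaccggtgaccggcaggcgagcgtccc
In the windows of Cry2 on chromosome 2 and Nr1d1 on chromosome 11 an E′-box lay 166 and 28 bases before the start. The windows of Clock, Npas2 and Nr1d2, on chromosomes 5, 1 and 14, held none of these letters. Arntl and Per1 each had another window, at a different start, that held none of them either. A match describes the letters of a window and was not tested as a binding site.

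Libraries held 10480788 to 13424078 reads counted on genes (median 12011453). The labelled tissue was matched by its markers, since the 6 cardiomyocyte markers summed to between 74600 and 102000 CPM in every library, while the summed 2 lung markers reached at most 0.668 CPM and the summed 3 kidney markers 0.564 CPM. CPM are counts scaled to the library total and to edgeR's TMM factors, which ran from 0.925 to 1.05, and are used within a gene. Endothelial markers were lower with RNLS in wild-type hearts, with a summed level of 1140 to 1310 CPM in WTCKD and 829 to 874 CPM in WTCKD + RNLS, where 4 of 5 passed edgeR's test at an adjusted p under 0.05. In knockout hearts 1 of the 5 was called lower. Of 4 atrial markers tested, 3 (Myl7, Myl4 and Sln) were called lower in KOCKD + RNLS than in KOCKD, and the sum of all 5 listed ran from 116 to 2650 CPM in KOCKD and from 128 to 286 CPM in KOCKD + RNLS. Myl7, an atrial myosin light chain, ran from 4.85 to 805.2 CPM in KOCKD and from 0.325 to 0.749 CPM in KOCKD + RNLS. The erythrocyte markers summed to 35.8 to 101 CPM in WTCKD and to 205 to 490 CPM in WTCKD + RNLS. They overlapped in knockout hearts, at 47.9 to 351 CPM in KOCKD and 70 to 277 CPM in KOCKD + RNLS. In WTSHAM they ran from 65.9 to 587 CPM. Macrophage markers summed to 161 to 211 CPM in WTCKD and 132 to 155 CPM in WTCKD + RNLS, with 0 of 5 called. In KOCKD they summed to 131 to 161 CPM and in KOCKD + RNLS to 106 to 146 CPM, with 1 called lower. Cardiomyocyte markers summed to 76300 to 89100 CPM in WTCKD and 93900 to 102000 CPM in WTCKD + RNLS, and to 77200 to 82500 CPM in KOCKD and 87800 to 91000 CPM in KOCKD + RNLS. Of 5 fibroblast markers only Col1a1, a fibrillar collagen gene, was called, with log2 fold changes of −0.95 (SE 0.258) in wild-type and −1.099 (SE 0.262) in knockout hearts. The part of these cells in the clock values was not tested, and in bulk tissue fewer cells of a type and less RNA per cell cannot be told apart.

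One feature of the labels bears on every value below. The labels give each library a name, and in 7 libraries it begins with WM or RM in capital letters. These are the 6 libraries of both RNLS groups and WTSHAM replicate 1. The other 8 libraries, named otherwise, are the 6 of both vector groups and WTSHAM replicates 2 and 3. The names of the 3 WTCKD libraries begin with wm in lower case and so differ from WM in letter case and number alone. What the names stand for is not given, and among the CKD hearts the name and RNLS cannot be told apart.

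Arntl, which encodes the obligate activator of the loop, had the largest fold difference among the 10 genes between RNLS and vector hearts. It stood at 7.67, 21.4 and 32.6 CPM in WTSHAM, 30.5, 30.8 and 34.0 in WTCKD, 1.34, 1.86 and 2.45 in WTCKD + RNLS, 23.4, 24.5 and 9.99 in KOCKD, and 1.63, 1.49 and 1.41 in KOCKD + RNLS. The 6 RNLS hearts lay below every other heart, and among the rest WTSHAM replicate 1 and KOCKD replicate 3 were the lowest. Arntl was 16.7-fold lower in WTCKD + RNLS than in WTCKD (log2 fold change −4.06, SE 0.463) and 12.6-fold lower in KOCKD + RNLS than in KOCKD (−3.66, SE 0.487). These RNLS levels rest on 15 to 32 reads per library, and the lowest count of 15 has an exact 95% Poisson interval of 8.4 to 24.7 reads, for counting error only. In the order of group means KOCKD + RNLS and WTCKD + RNLS overlapped, as did KOCKD, WTSHAM and WTCKD except that KOCKD stayed below WTCKD.

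Clock, the constant partner of BMAL1, varied less. It stood at 45.8, 71.6 and 79.6 CPM in WTSHAM, 57.3, 59.1 and 60.3 in WTCKD, 38.1, 32.4 and 39.6 in WTCKD + RNLS, 48.9, 46.6 and 47.7 in KOCKD, and 40.3, 37.3 and 34.0 in KOCKD + RNLS. All 6 RNLS hearts were below the other 9 hearts, and WTSHAM replicate 1 was the next. The log2 fold change was −0.68 (SE 0.148) in wild-type and −0.36 (SE 0.149) in knockout hearts.

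Npas2, a partner of BMAL1 that can stand in for CLOCK, had only 19 to 38 reads in the RNLS libraries. It stood at 2.67, 7.22 and 11.1 CPM in WTSHAM, 9.13, 10.8 and 9.61 in WTCKD, 3.17, 2.14 and 2.45 in WTCKD + RNLS, 5.34, 4.10 and 3.06 in KOCKD, and 2.19, 1.57 and 2.90 in KOCKD + RNLS. The RNLS groups lay below their own vector groups, and KOCKD lay wholly below WTCKD. Npas2 was 3.79-fold lower with RNLS in wild-type hearts (log2 fold change −1.92, SE 0.380) and 1.88-fold lower in knockout hearts (−0.91, SE 0.408).

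**Figure D1:**
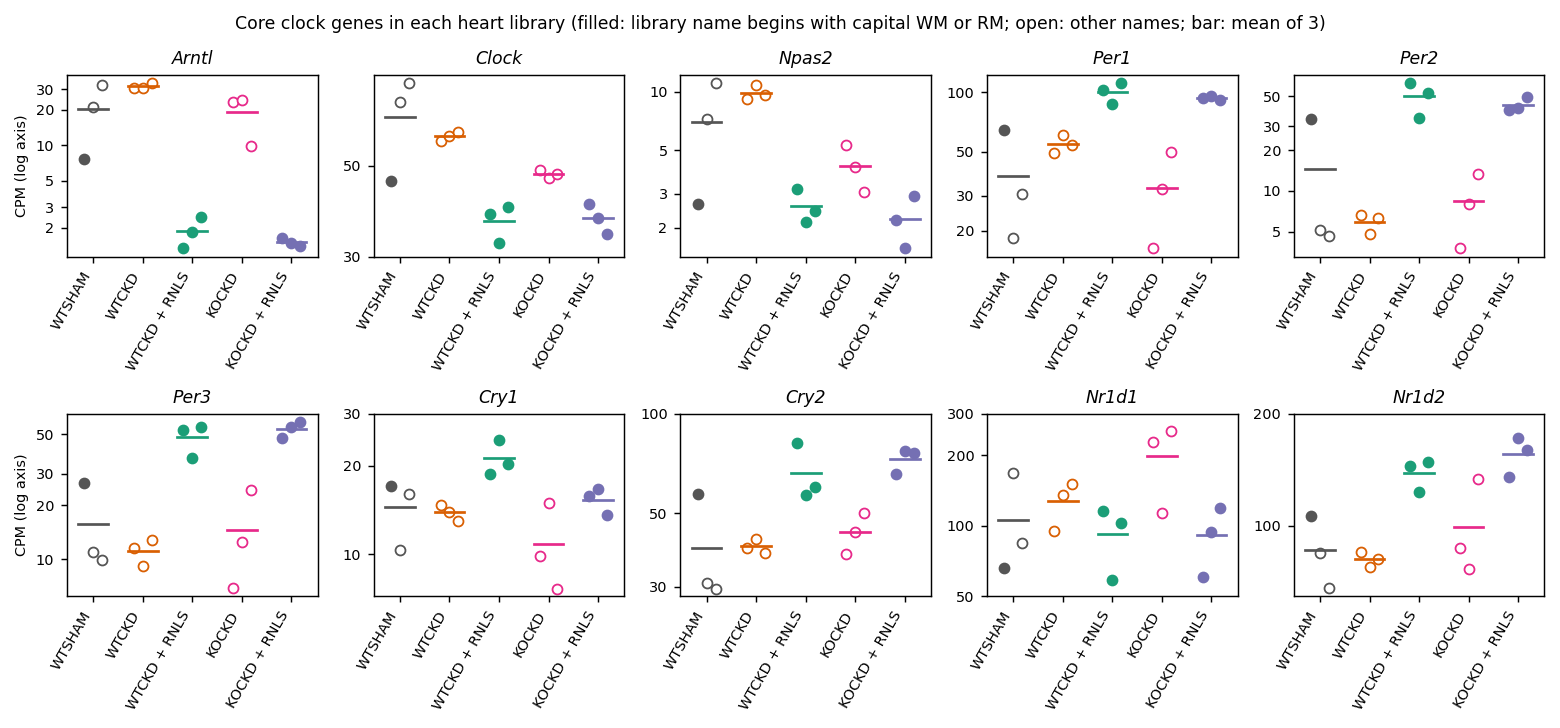
CPM on a log axis for each of the 10 genes in each of 15 heart libraries, by group, with a bar at the mean of 3. Filled points are libraries whose names begin with WM or RM in capital letters. Arntl lies between 1.34 and 2.45 CPM in the 6 RNLS hearts and between 7.67 and 34.0 CPM in the other hearts. In the Arntl panel the filled WTSHAM point, at 7.67 CPM, lies below the open WTSHAM points.

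Per2, an inhibitor of the loop and a direct E-box target, moved opposite to Arntl. It stood at 33.9, 5.19 and 4.64 CPM in WTSHAM, 6.68, 4.78 and 6.30 in WTCKD, 62.8, 34.5 and 52.5 in WTCKD + RNLS, 3.76, 8.01 and 13.3 in KOCKD, and 39.7, 41.3 and 49.4 in KOCKD + RNLS. WTSHAM replicate 1 came just under the RNLS hearts and above all vector hearts, while the other 2 sham hearts sat among the vector hearts. Per2 was 8.42-fold higher with RNLS in wild-type hearts (log2 fold change 3.07, SE 0.590) and 5.16-fold higher in knockout hearts (2.37, SE 0.566).

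Per3, the least essential of the Per genes for rhythm, followed the same layout. It stood at 26.6, 10.9 and 9.86 CPM in WTSHAM, 11.5, 9.09 and 12.8 in WTCKD, 53.0, 36.7 and 55.1 in WTCKD + RNLS, 6.91, 12.4 and 24.5 in KOCKD, and 47.4, 55.2 and 58.5 in KOCKD + RNLS. Every RNLS heart exceeded every other heart. The fold was 4.34 in wild-type hearts (log2 fold change 2.12, SE 0.379) and 3.65 in knockout hearts (1.87, SE 0.369).

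Per1, which also responds quickly to hormones and stress, stood at 64.5, 18.4 and 30.6 CPM in WTSHAM, 49.1, 60.97 and 54.4 in WTCKD, 102.9, 87.3 and 111.3 in WTCKD + RNLS, 16.3, 32.3 and 50.1 in KOCKD, and 93.5, 95.9 and 91.0 in KOCKD + RNLS. Again the RNLS hearts were the highest 6 and WTSHAM replicate 1 followed. The log2 fold change was 0.88 (SE 0.346) in wild-type and 1.502 (SE 0.356) in knockout hearts.

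Cry2 and Cry1 encode the strongest repressors of the BMAL1 pair, and they differed from each other. Cry2 stood at 57.1, 30.8 and 29.6 CPM in WTSHAM, 39.4, 42.0 and 37.9 in WTCKD, 81.9, 56.6 and 60.3 in WTCKD + RNLS, 37.8, 43.9 and 49.95 in KOCKD, and 65.8, 77.0 and 75.9 in KOCKD + RNLS. The RNLS groups did not overlap their vector groups, with log2 fold changes of 0.74 (SE 0.202) and 0.73 (SE 0.201) in wild-type and knockout hearts. WTSHAM replicate 1 lay within the range of WTCKD + RNLS.

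Cry1, which is driven through E-boxes and ROREs both, stood at 17.1, 10.4 and 16.0 CPM in WTSHAM, 14.7, 14.0 and 13.0 in WTCKD, 18.7, 24.5 and 20.3 in WTCKD + RNLS, 9.89, 15 and 7.65 in KOCKD, and 15.8, 16.6 and 13.6 in KOCKD + RNLS. WTCKD + RNLS was the highest group without overlap with any other, and KOCKD and KOCKD + RNLS overlapped. Its log2 fold change was 0.61 (SE 0.209) in wild-type and 0.51 (SE 0.216) in knockout hearts.

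Nr1d1, the E-box target that represses Arntl, did not follow the other E-box targets. It stood at 66.1, 168.0 and 84.0 CPM in WTSHAM, 95.2, 135.3 and 150.5 in WTCKD, 114.9, 58.7 and 102.8 in WTCKD + RNLS, 226.8, 113.5 and 254.6 in KOCKD, and 60.5, 93.5 and 118.8 in KOCKD + RNLS. All neighbouring groups overlapped, and both RNLS groups overlapped their vector groups. Its log2 fold change was −0.46 (SE 0.356) in wild-type and −1.13 (SE 0.358) in knockout hearts, the opposite sign to Nr1d2.

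Nr1d2, the paralogue of Nr1d1, stood at 106.0, 84.6 and 67.8 CPM in WTSHAM, 84.9, 77.6 and 81.7 in WTCKD, 144.7, 122.9 and 148.5 in WTCKD + RNLS, 87.1, 76.5 and 133.9 in KOCKD, and 135.5, 172.4 and 160.0 in KOCKD + RNLS. KOCKD replicate 3 reached into the range of WTCKD + RNLS, and the other vector hearts did not. Log2 fold changes were 0.77 (SE 0.180) in wild-type and 0.65 (SE 0.179) in knockout hearts.

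**Figure D2:**
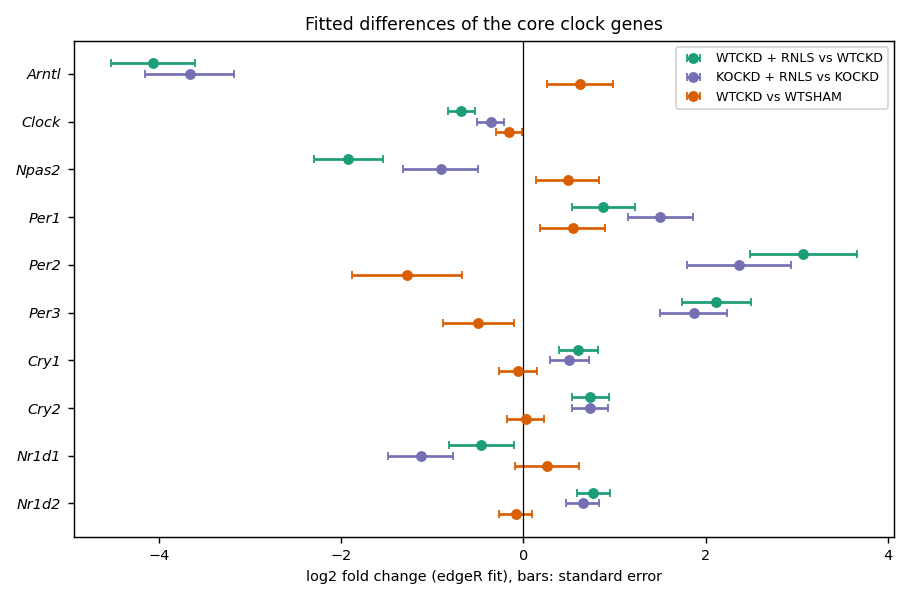
Fitted log2 fold change (horizontal axis) of each clock gene with its standard error for RNLS against vector in wild-type and in knockout hearts and for WTCKD against WTSHAM. Arntl reaches −4.06 and Per2 3.07 in wild-type hearts, whereas the CKD differences lie between −1.28 for Per2 and 0.62 for Arntl, values that became 0.27 and 0.24 without WTSHAM replicate 1.

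Between WTCKD + RNLS and WTCKD, 7 of the 10 genes passed edgeR's quasi-likelihood test at a Benjamini-Hochberg adjusted p under 0.05, where 4.47% of all genes tested passed. Arntl, Clock and Npas2 were lower, beside 2.28% of all genes, and Per2, Per3, Cry2 and Nr1d2 were higher, beside 2.19%. Between KOCKD + RNLS and KOCKD 7 passed as well, beside 16.1% of all genes. Here Arntl and Nr1d1 were lower, beside 7.04% of all genes, and Per1, Per2, Per3, Cry2 and Nr1d2 were higher, beside 9.05%. The groups did not overlap for 9 of the 10 genes in wild-type hearts, against 21.2% of all genes, and for 8 in knockout hearts, against 40.6%. Since the genes were listed with these differences known, nothing is read from these shares. The median log2 fold change over all genes was 0.01 in wild-type and −0.01 in knockout hearts. Several calls were lost when 1 library was left out. How many of all genes were called in those fits was not counted, so nothing is read from the losses. Cry2 and Nr1d2 passed in 1 of 6 fits that each left out a wild-type library. Their log2 fold changes in these fits ran from 0.554 to 0.821 and from 0.718 to 0.834. In knockout hearts Cry2, Nr1d1 and Nr1d2 passed in 2 of 6 such fits, whereas Arntl and Per3 passed in all 6 of both. Clock in wild-type hearts lost its call without WTCKD replicate 2, and Per2 in knockout hearts without KOCKD replicate 2.

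The RNLS difference itself was compared between genotypes by an interaction term. No clock gene passed (0 of 10 at an adjusted p under 0.05 by edgeR and by DESeq2, and 0 at an unadjusted p under 0.05 by both), and over all genes edgeR called 0%, with 2288 genes at an unadjusted p under 0.05, and DESeq2 called 374 genes. The point estimate was largest for Npas2, whose RNLS difference was less negative in knockout hearts by 1.01 (SE 0.561) on the log2 scale. For Arntl the difference between genotypes was 0.40 (SE 0.727) and for Per2 −0.71 (SE 0.810), and differences of the size of these errors were not detectable with 3 hearts a group. Set directly against each other, KOCKD + RNLS and WTCKD + RNLS gave 0 of 10 called by edgeR and by DESeq2, where edgeR called 0.338% of all genes. At an unadjusted p under 0.05 each had 1 of the 10, and edgeR had 2020 of all 13021 genes. That gene was Cry1 in edgeR's fit, lower in the knockout by 0.46 (SE 0.208) on the log2 scale. Its groups did not overlap, and 1445 of the 13021 genes were lower without overlap.

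CKD and the knockout were compared in hearts without RNLS virus, and neither comparison called a clock gene. WTCKD against WTSHAM gave 0 of 10 called, and 0 at an unadjusted p under 0.05, by edgeR and by DESeq2, beside 2.3% of all genes called by edgeR, and the groups overlapped for all 10 genes, where 22.5% of all genes did not overlap. WTSHAM was the wider group for Per2, which ran there from 4.64 to 33.9 CPM, against 4.78 to 6.68 CPM in WTCKD. Without WTSHAM replicate 1 the log2 fold change of Per2 turned from −1.28 to 0.27 and that of Arntl went from 0.62 to 0.24. KOCKD against WTCKD gave 0 of 10 called by edgeR, with 1 (Npas2) at an unadjusted p under 0.05, and 0 by DESeq2 with 2. Over all genes edgeR called 0% here, with 1318 at an unadjusted p under 0.05, and DESeq2 called 10 genes. Arntl, Clock and Npas2 were each lower in KOCKD than in WTCKD without overlap, by 0.73 (SE 0.362), 0.30 (SE 0.147) and 1.24 (SE 0.363) on the log2 scale, where 9.43% of all genes were lower without overlap.

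The 10 genes were also followed as 2 arms. The activator arm was the mean over Arntl, Clock and Npas2 of each gene's log2 CPM minus its mean over the 15 libraries, the E-box arm was the same over Per1, Per2, Per3, Cry2, Nr1d1 and Nr1d2, and their difference was the balance of the clock. The balance was 1.94, 1.49 and 1.66 in WTCKD + RNLS and 1.61, 2.09 and 1.96 in KOCKD + RNLS. It was −1.62, −1.73 and −1.60 in WTCKD. In KOCKD it was −1.48, −1.04 and 0.26, and in WTSHAM 0.42, −1.68 and −2.29. The E-box arm lay above the activator arm in 8 libraries, the 6 RNLS hearts, WTSHAM replicate 1 and KOCKD replicate 3, and the last 2 fell in the gap between the clusters. Group means were 1.70 ± 0.226 (SD, n = 3) in WTCKD + RNLS, 1.89 ± 0.246 in KOCKD + RNLS, −1.65 ± 0.0687 in WTCKD, −0.755 ± 0.902 in KOCKD and −1.18 ± 1.42 in WTSHAM.

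**Figure D3:**
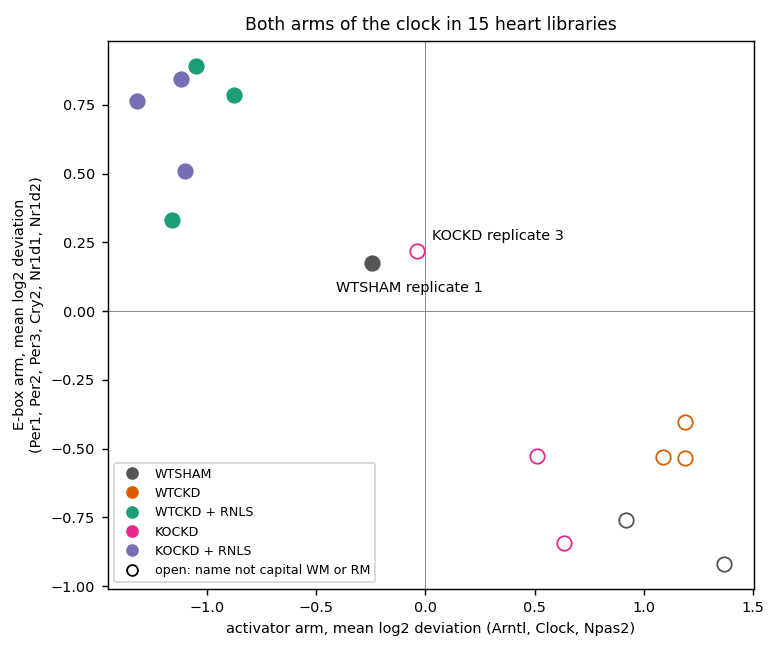
Activator arm (horizontal) against E-box arm (vertical), both as mean log2 deviation from the average of 15 libraries, 1 point per heart. The RNLS hearts lie at the upper left, most vector and sham hearts at the lower right, and WTSHAM replicate 1 (balance 0.42) and KOCKD replicate 3 (0.26) lie between them.

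WTSHAM replicate 1, a heart without RNLS virus, stood on the side of the RNLS hearts. Against the mean of WTSHAM replicates 2 and 3, its log2 CPM differed by −1.76 for Arntl, −0.72 for Clock and −1.69 for Npas2. The differences were 2.75 for Per2, 1.44 for Per1, 1.34 for Per3, 0.92 for Cry2, 0.48 for Nr1d2, 0.40 for Cry1 and −0.84 for Nr1d1. All 10 had the sign of the difference between the RNLS groups and the vector groups, which held for 49.6% of all genes tested. For 9 of the 10 genes, Arntl apart, this heart lay nearer to the mean of the RNLS groups than to its own group, against 52.8% of all genes.

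The libraries were also compared by name. The lowest balance among those named WM or RM was 0.42, in WTSHAM replicate 1. Among the others the highest was 0.26, in KOCKD replicate 3, and the lowest of an RNLS heart was 1.49. Between the 7 libraries named WM or RM in capitals and the other 8, Arntl (1.34 to 7.67 against 9.99 to 34.0 CPM), Clock (32.4 to 45.8 against 46.6 to 79.6 CPM), Per1, Per2 (33.9 to 62.8 against 3.76 to 13.3 CPM), Per3 and Cry2 did not overlap. These are 6 of the 10 genes, where 1.61% of all genes tested did not overlap. KOCKD replicate 3, a vector heart outside the WM and RM names, stood partway, with Arntl at 9.99 CPM against 23.4 and 24.5 CPM in the other KOCKD hearts and Per3 higher than their mean by 1.39 on the log2 scale. Its Cry1 and Nr1d1 lay on the side away from the RNLS hearts, with differences of −0.66 and 0.67 from that mean, and its Clock, at 47.7 CPM, lay between the other KOCKD hearts. Without it the knockout RNLS difference was −3.97 for Arntl, 2.89 for Per2 and 2.48 for Per3.

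A term for the library name was added to the fit after these values were seen. It is estimated from WTSHAM alone, the only group with both kinds of name, and so from 1 library against 2. With it 0 of the 10 clock genes were called by edgeR in wild-type hearts (1 at an unadjusted p under 0.05) beside 0.246% of all genes, and 0 in knockout hearts (2 at an unadjusted p under 0.05) beside 3.41%. DESeq2 was not run with this term. The RNLS difference of Arntl was then −2.25 (SE 0.522) in wild-type and −1.85 (SE 0.539) in knockout hearts. For Per2 it was 0.29 (SE 0.546) and −0.42 (SE 0.532), and for Per3 0.76 (SE 0.534) and 0.51 (SE 0.528). Of the 10 genes 4 changed sign in wild-type hearts, Clock to 0.04, Cry2 to −0.18, Per1 to −0.52 and Nr1d1 to 0.47. In knockout hearts 4 changed sign as well, Clock to 0.37, Npas2 to 0.87, Per2 to −0.42 and Cry2 to −0.19. Within the CKD groups the part of RNLS and that of whatever the name stands for cannot be told apart.

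**Figure D4:**
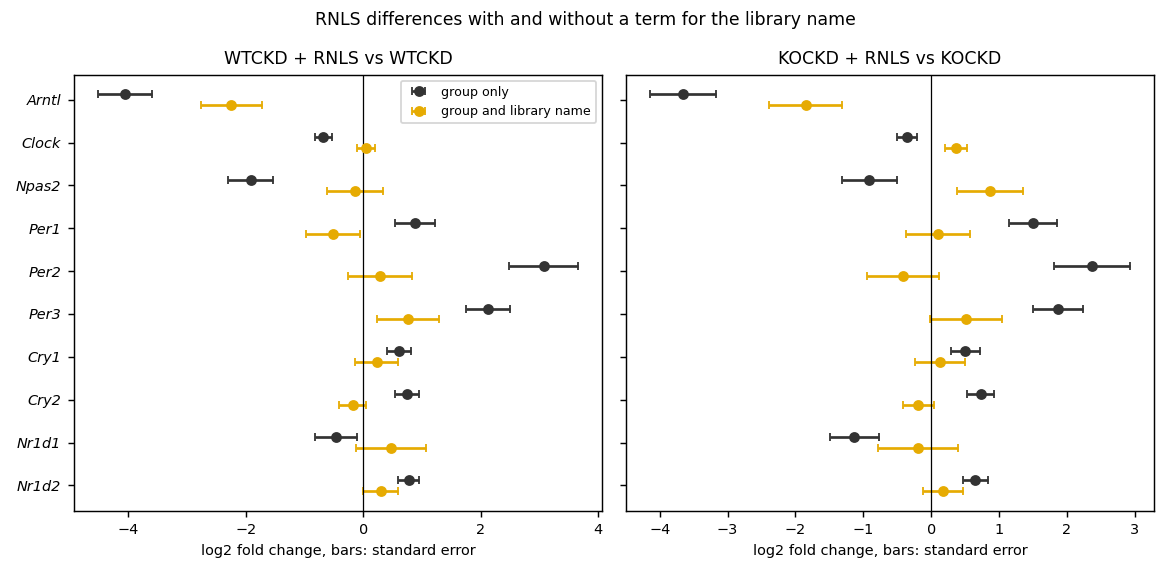
Log2 fold change with standard error (horizontal axis) of each clock gene for RNLS against vector in wild-type (left) and knockout hearts (right), fitted with the group only and with an added term for the library name. With the term Arntl stays below 0 (−2.25 and −1.85), while Per2 lies at 0.29 and −0.42.

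Comparison with the sham group involves the same names. WTCKD + RNLS against WTSHAM had 7 of the 10 genes called, beside 7.69% of all genes, with Arntl 10.8-fold lower (log2 fold change −3.44, SE 0.466). Only 2 of them, Arntl and Clock, were called without WTSHAM replicate 2 or without WTSHAM replicate 3, while 3 were called without replicate 1 of WTCKD + RNLS and 4 without its replicate 3. The share of all genes called in these fits was not counted. Against WTSHAM replicate 1 alone, a sham library set apart after its values were seen and with no spread of its own, the difference was −2.01 for Arntl and 0.56 for Per2 on the log2 scale, given as values without a test.

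Between genes, levels were compared by the deposited FPKM, which are per length. Nr1d1 was the most abundant clock gene in every group, with mean FPKM from 32.3 in WTCKD + RNLS to 72.3 in KOCKD, followed by Nr1d2 and Cry2 in each group. Arntl was the least abundant in both RNLS groups and in WTSHAM. It had 0.0936 ± 0.0281 FPKM (SD, n = 3) in WTCKD + RNLS and 0.0787 ± 0.00548 in KOCKD + RNLS. In WTSHAM it had 1.1 ± 0.684 FPKM, in KOCKD 0.999 ± 0.408, at rank 9 of the 10, and in WTCKD 1.66 ± 0.0664. Per2 went from the least abundant of the 10 in WTCKD (0.979 FPKM) to the fifth in WTCKD + RNLS (7.93 FPKM). The ratio of Per2 to Arntl in FPKM was 0.693, 0.492 and 0.586 in WTCKD and 149.0, 58.7 and 67.9 in WTCKD + RNLS. It was 0.51, 1.04 and 4.21 in KOCKD and 77.4, 87.8 and 111.0 in KOCKD + RNLS. In WTSHAM it was 14.0, 0.769 and 0.45, so replicate 1 again stood between the others and the RNLS hearts.

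Across the 15 libraries Arntl, Clock and Npas2 moved opposite to Per1, Per2, Per3, Cry2 and Nr1d2, while Cry1 and Nr1d1 stood apart. Pearson's r of log2 CPM was 0.98 between Per2 and Per3 and −0.951 between Arntl and Per2, and after group means were removed it was 0.93 and −0.859. Arntl also went with Npas2 (0.873, and 0.758 within groups) and Clock (0.869 and 0.739). Cry1 was set against Nr1d1 (−0.85, and −0.888 within groups), while its r with Arntl was −0.493 overall and 0.186 within groups. Nr1d1, although counted in the E-box arm, had an r of 0.431 with Arntl and −0.499 with Per2. Within groups these were −0.00918 and −0.197. These values describe 15 libraries that share the layout by group and by name.

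Outside the 10 genes, 47 further clock genes were listed, of which 46 were tested. In wild-type hearts 15 of them were called with RNLS, 12 higher and 3 lower, beside 4.47% of all genes, and in knockout hearts 19 were called, 16 higher and 3 lower, beside 16.1%. With the name term 1 was called in wild-type hearts, beside 0.246% of all genes, and 2 in knockout hearts, beside 3.41%. WTCKD against WTSHAM had 5 called, 3 higher and 2 lower, beside 2.3% of all genes. KOCKD against WTCKD had 0 called by edgeR (11 at an unadjusted p under 0.05) and by DESeq2 (10), and the interaction of RNLS with genotype had 0 by both (7 at an unadjusted p under 0.05 by each).

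Of 7 output factors, the proteins through which the loop reaches its targets, 5 were called higher in wild-type hearts, beside 2.19% of all genes. The median log2 fold change of the 7 was 1.43 in wild-type and 1.22 in knockout hearts, where 3 were called higher, beside 9.05%. Hlf, a D-box activator, rose from 17.7 ± 3.80 CPM (SD, n = 3) in WTCKD to 62.3 ± 15.7 in WTCKD + RNLS, and from 21.1 ± 7.85 in KOCKD to 64.6 ± 7.85 in KOCKD + RNLS. Tef, its relative, rose by 1.43 (SE 0.261) and 1.27 (SE 0.259) on the log2 scale. Ciart, a repressor of the BMAL1 pair, rose from 1.48 CPM to 18.7 CPM in wild-type hearts, and from 5.22 CPM to 18.4 CPM in knockout hearts, where KOCKD replicates spread from 2.61 to 9.99 CPM. Dbp, the third D-box activator, rose in wild-type hearts by 2.24 (SE 0.564), and in knockout hearts its log2 fold change of 1.22 did not pass.

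Clock-controlled heart genes were called in both directions. Of 13, 6 were higher and 3 lower in wild-type hearts, beside 2.19% and 2.28% of all genes. In knockout hearts 4 were higher and 3 lower, beside 9.05% and 7.04%. Pdk4, which restrains glucose oxidation, fell from 871.8 ± 428 CPM to 85.3 ± 14.6 CPM in wild-type hearts and from 384.5 ± 185 to 100.7 ± 20.7 CPM in knockout hearts. Ucp3, a mitochondrial carrier, fell by 2.59 (SE 0.486) and by 1.41 (SE 0.464) on the log2 scale, and Cdkn1a, a cell cycle inhibitor, fell by 1.48 (SE 0.269) and by 1.54 (SE 0.284). Wee1, a mitotic kinase and E-box target, rose by 1.41 (SE 0.250) and 1.34 (SE 0.252). Pik3r1, a regulatory subunit of PI3 kinase, rose by 1.17 (SE 0.142) and 0.71 (SE 0.141).

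**Figure D5:**
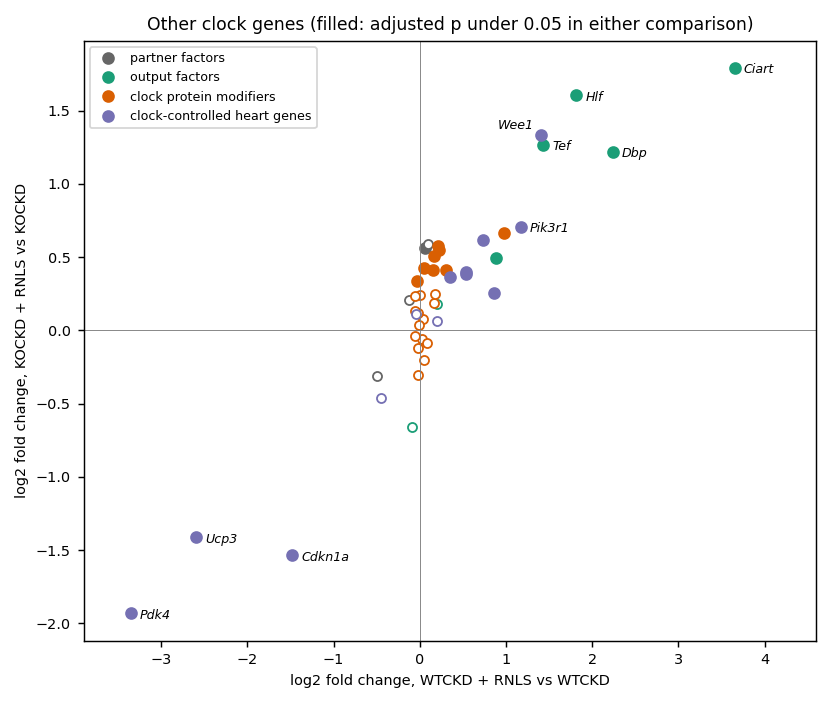
Log2 fold change with RNLS in wild-type hearts (horizontal) against that in knockout hearts (vertical) for 46 other clock genes, by list. Filled points passed an adjusted p under 0.05 in at least 1 comparison, with Ciart at 3.65 and 1.79 and Pdk4 at −3.35 and −1.93.

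Modifiers of clock proteins, such as kinases, ubiquitin ligases and corepressors, gave 1 call among 22 tested in wild-type hearts, beside 4.47% of all genes. That gene was Usp2, a deubiquitinase, with a log2 fold change of 0.97 (SE 0.192). In knockout hearts 8 of 22 were higher, beside 9.05% of all genes called higher there, among them Usp2 at 0.66 (SE 0.191) and the corepressor gene Ncor1 at 0.41 (SE 0.0834). Among 4 partner factors Rora, an activator of Arntl at ROREs, rose in knockout hearts by 0.56 (SE 0.114). In wild-type hearts its log2 fold change was 0.06 (SE 0.112), and 0 of the 4 were called, or had an unadjusted p under 0.05, by edgeR and by DESeq2.

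Genes outside the lists were ranked by how closely their log2 CPM followed the balance over the 15 libraries. Of 12965 genes, 16 had a Pearson's r over 0.9 and 41 had one under −0.9. Highest were Mid1ip1, a regulator of fatty acid synthesis (r 0.971, and 0.884 after group means were removed), and Rhobtb1 (0.958 and 0.899). Trip10 (0.954), Kansl1l (0.948) and Eef2k (0.939) came next. Mid1ip1 averaged 99.9 CPM in the vector groups and 248.0 CPM in the RNLS groups. Lowest were Top2a, a topoisomerase of dividing cells (r −0.962, and −0.865 within groups), and Col3a1, a fibrillar collagen (−0.958 and −0.82), which averaged 228.0 CPM in the vector groups and 72.3 CPM in the RNLS groups. Leo1 (−0.951), Spon2 (−0.95) and Rpn2 (−0.946) came next at that end. These libraries share the layout by group and by name, and no function is read from the likeness.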

How the data were processed

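Raw counts per gene of the 15 heart libraries were used as the authors deposited them. By the study's methods the reads were trimmed with Trimmomatic, mapped with HISAT2 and counted with HTSeq. The study names 2 Illumina sequencers as alternatives, and the sequencer of each library is not given in the sources used here. The study names one mouse genome build and the submitters' processing notes another, so no coordinate was taken from the files. The authors also deposited FPKM values (Cufflinks), which by their values are the counts per gene length and library total, and served to compare levels between genes. Groups followed the labels, and no per-sample column was left unmapped.

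The 10 genes, the lists of other clock genes and markers, and the comparisons were chosen with earlier results of these data known. R 4.3.3 with edgeR 4.0.16 was used with TMM scaling, its default filter (minimum count 10, total 15), a quasi-likelihood fit over all 15 libraries with the group as the only term, and Benjamini-Hochberg adjustment over 13021 genes. SE is the size of the log2 fold change divided by the root of F. Log2 CPM used a prior count of 2. Labels do not say more of how mice were allotted, so the spread is between these hearts. Other clock genes were named where called in an RNLS comparison, at most 8 by adjusted p in each. 1 gene that this rule names is not reported here. The 5 genes with the highest and the 5 with the lowest Pearson's r to the balance were also ranked. Ciart, Dbp and Usp2 were named after their values were seen. DESeq2 1.42.0, RLE factors, no filter, only the libraries compared, a replicate block, each library left out and, after the data were seen, the library name were the alternatives. On simulated data for WTCKD + RNLS against WTCKD, 145 of 197 changed genes of 12883 were recovered, all with the right sign, with 12 false calls. Each simulated gene had the same mean in all groups apart from the changes, which were placed in WTCKD + RNLS. No change was as small as that of Clock in knockout hearts (−0.36), and none was linked to the library name. Recovery of such differences was not tested. Numbers and figures were made with Python 3.11.15, numpy 2.4.6, pandas 2.3.3 and matplotlib 3.10.9. Rnls itself was not analysed here, so the genotype rests on the labels.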

Additional observations from a re-analysis of the deposited data

How the results depend on the processing

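With RLE factors, no filter, DESeq2, a replicate block, only the libraries compared or each library left out, 0 of 110 clock gene values changed direction in either RNLS comparison, and 9 of 110 did, none of them called, in WTCKD against WTSHAM. With each library left out the clock genes called ran from 4 (without WTCKD replicate 2) to 7 in WTCKD + RNLS against WTCKD, from 4 (without KOCKD replicate 1 or KOCKD + RNLS replicate 2) to 6 in KOCKD + RNLS against KOCKD, and from 2 (without WTSHAM replicate 2 or 3) to 8 in WTCKD + RNLS against WTSHAM, where leaving out replicate 1 of WTCKD + RNLS gave 3 and leaving out its replicate 3 gave 4. Using only the libraries compared, 2 were called there. In that fit the filter, scaling and spread all came from WTSHAM and WTCKD + RNLS alone, and their parts were not tested. The other clock genes called in WTCKD against WTSHAM, 5 in all, ran from 2 to 5 with each library left out, were 2 with a replicate block and 3 with only the libraries compared. The share of all genes called was counted in none of these fits, so the losses are not read as particular to clock genes.

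The replicate numbers did not pair the hearts, since libraries of the same number correlated at −0.36 to 0.334 (median −0.0366) and 4 of 15 correlated best with their own number, so the replicate block is no paired analysis. It changed no other count by over 1.5 times.

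With the library name term, chosen after seeing the data, fewer clock genes were called. They fell to 0 in WTCKD + RNLS against WTCKD and 0 in KOCKD + RNLS against KOCKD, beside 0.246% and 3.41% of all genes. In WTCKD + RNLS against WTSHAM 1 was called, beside 1.67%. With only libraries named WM or RM the sham arm is 1 library without a spread of its own, and no call is counted. With the name term the other clock genes called fell to 1 in the wild-type and 2 in the knockout RNLS comparison, beside the same 0.246% and 3.41%. Of the genes called, the sign changed for Clock (0.043, SE 0.16) and Cry2 (−0.18, SE 0.232) in wild-type hearts. In knockout hearts it changed for Per2 (−0.42, SE 0.532) and Cry2 (−0.19, SE 0.232). Each of these values was smaller in size than its SE. Of those not called, the sign changed for Per1 (−0.52) and Nr1d1 (0.47) in wild-type and for Clock (0.37) and Npas2 (0.87) in knockout hearts. The cause was not tested. Over all genes DESeq2 called 876 genes against 582 by edgeR in WTCKD + RNLS against WTCKD, 577 against 299 in WTCKD against WTSHAM, 358 against 44 in KOCKD + RNLS against WTCKD + RNLS, 10 against 0 in KOCKD against WTCKD and 374 against 0 for the difference between genotypes. With the name term edgeR called 32 genes in the wild-type and 444 against 2095 in the knockout RNLS comparison, and 218 against 1001 in WTCKD + RNLS against WTSHAM. The 8 libraries with the E-box arm above the activator arm stayed 8 with RLE factors and with z scores per gene. The lowest Arntl counts and 3 hearts a group limit the precision.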
